A study of Mus musculus with 67 samples.

Results

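The neuronal synaptic genes described here are 35 genes that build or mark the synapse and the neuron, found by symbol among the 24684 genes named in the 3 count tables of the series. Each table held all 35, and all 35 passed the filter on low counts in each experiment. They comprise 8 genes of the vesicle release machinery (Snap25, Syt1, Stx1a, Vamp2, Nsf, Cplx1, Cplx2, Rab3a), 5 vesicle proteins (Syn1, Syn2, Sv2a, Sv2b, Syp) and 2 active zone scaffolds (Bsn, Pclo). A further 9 are postsynaptic (Dlg4, Camk2a, Camk2b, Nrgn, Grin1, Grin2b, Gria1, Gria2, Gabrb2), 5 make or load a transmitter (Slc17a7, Slc17a6, Gad1, Gad2, Slc32a1), and 6 mark neurons otherwise (Sncb, Stmn2, Map2, Hpca, Olfm1, Uchl1). The pull-downs and sorted cells were prepared to read microglia, with input and IgG beside them, so these genes serve as a read of neuronal RNA. Whether all their reads come from neurons was not tested.

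At a chemical synapse, vesicles loaded with glutamate or GABA dock at the active zone, and the SNARE proteins fuse them with the membrane when the calcium sensor synaptotagmin is triggered. Receptors and kinases anchored on the other side receive the transmitter. Neurons hold large amounts of these RNAs, whereas microglia, the macrophages that reside in the brain, are not known to run this programme.

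In RiboTag mice, Cre adds an HA tag to Rpl22, a protein of the ribosome, so that an anti-HA antibody pulls down tagged ribosomes with their RNA. All mice were C57BL/6J, carried RLP22HA/HA, and expressed Cre from the locus of the fractalkine receptor Cx3cr1, which microglia and other macrophages use. The driver experiment held CX3CR1CreER/WT mice with tamoxifen (inducible, 3 mice), the same genotype without tamoxifen (2 mice) and CX3CR1Cre/WT mice without tamoxifen (constitutive, 3 mice). Each kind had an anti-HA pull-down, a pull-down with a control IgG1 antibody, and input, which is the homogenate supernatant before the antibody. All mice of the other experiments were CX3CR1CreER/WT with tamoxifen, gavaged 4 times with 5 mg between the ages of 4 and 6 weeks. The digest experiment held pull-down (3 libraries), IgG (4), cells sorted after an enzyme step of 20 min with DNase and Collagenase D (4) and cells sorted without it (4). The LPS experiment held mice given PBS (3) or 2.5 mg/kg of the inflammatory endotoxin lipopolysaccharide (LPS) for 3 h (4). Each treatment had pull-down, IgG, sorted cells, and sortIP, the pull-down from sorted cells. Per the design text, sorting and pull-down used the same animals. In the LPS experiment 1 number per mouse, from 1 to 7, runs through the titles of all 4 preparations, so those libraries are paired within a treatment. Age at sampling was not given. A constitutive driver also marks every cell whose precursors once used the locus, and the stated amount of antibody was 125 µg for anti-HA but 1 µg for the IgG1 control.

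For the promoters, 29 of the 35 genes matched an entry of the RefSeq table (build GRCm38.p6, 250 bases before to 50 after the start). TTCAGCACC, a part of the RE1 element through which the repressor REST silences neuronal genes outside neurons, was searched on both strands. The 29 genes held 43 promoters. The motif stood in the window of 1 of the 29 genes, the synapsin gene Syn1, and in 122 of all 32851 promoters (0.371%). The stretch that holds the motif is shown because Syn1 was the only member with it. It lies on chrX:20921097-20921168, minus strand, with the motif in capitals at -232 to -224 from the start.
Syn1: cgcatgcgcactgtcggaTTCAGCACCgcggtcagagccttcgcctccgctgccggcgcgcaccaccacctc

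Totals ran from 166851 to 3513317 counts per library, and the shallowest groups were the pull-down without tamoxifen (186099 to 219521) and the sortIP libraries (166851 to 669508). The label microglia held for the pull-down of inducible mice, where 20 of 20 microglial markers were higher than in input (median log2 difference 6.20) and summed to 6.89% to 8.09% of counts. In the pull-down of constitutive mice 18 of 20 were higher, but by a median of 2.15, and they summed to 0.317%, 0.648% and 0.731%. No microglial marker was at 0 reads in any pull-down, sorted or sortIP group.

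The first question was what share of counts the neuronal genes took in the pull-down with each driver. The 35 genes together took 3.31%, 3.08% and 2.63% of all counts in the 3 inputs of inducible mice and 2.68%, 2.77% and 2.73% in their IgG libraries. In the pull-downs of the same kind of mice they took 0.989%, 0.806% and 1.07%. The pull-down mean was thus 31.8% of the input mean and 35.1% of the IgG mean, with no overlap. In the pull-downs of constitutive mice they took 3.08%, 3.82% and 3.53%, against 3.27%, 3.16% and 2.69% in input and 2.70%, 2.89% and 3.23% in IgG. These pull-downs overlapped both backgrounds, and their mean was 1.14 times that of input and 3.64 times that of the inducible pull-down. In mice without tamoxifen the shares were 2.48% and 2.74% in pull-down, 3.11% and 3.13% in input and 2.68% and 2.66% in IgG. Since each library is bulk RNA read as a share of its own total, less neuronal RNA and more RNA of other cells cannot be told apart.

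**Figure D1:**
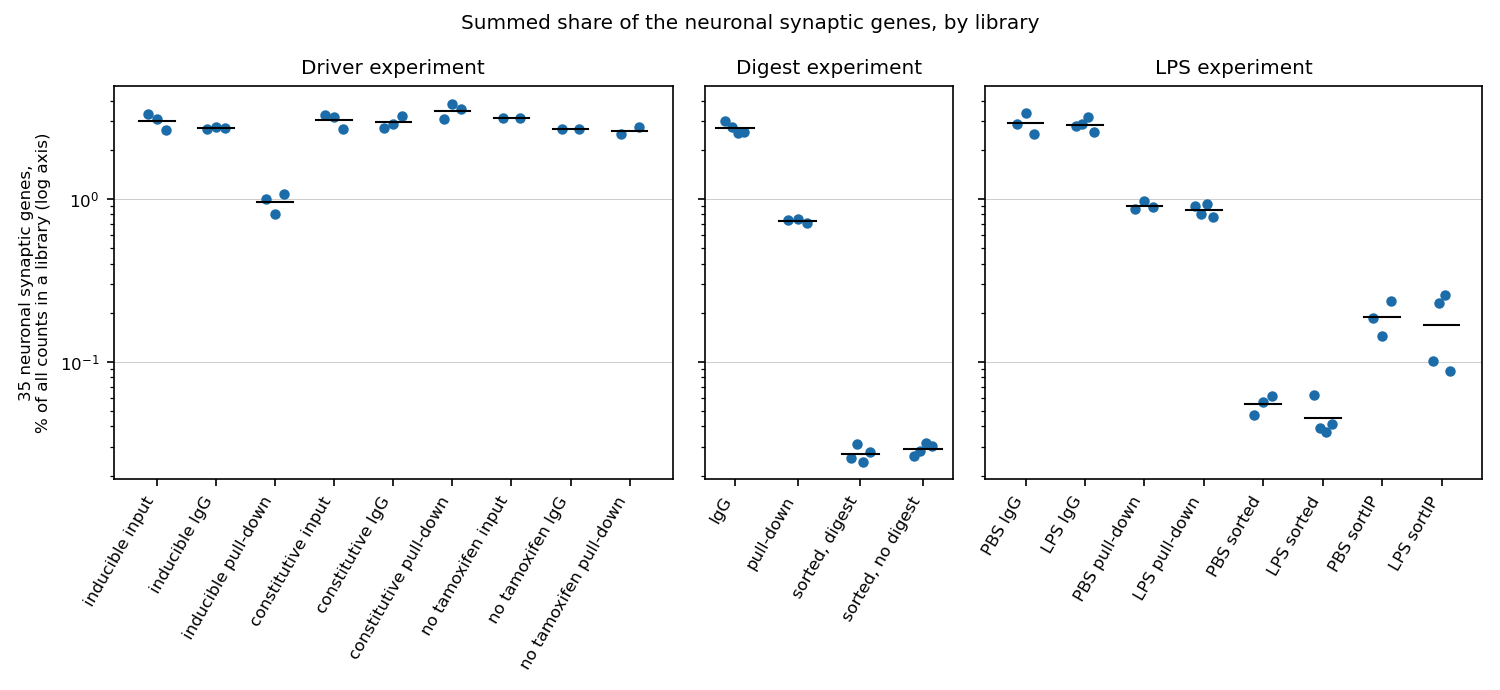
Summed share of the 35 neuronal synaptic genes, in % of all counts of a library on a log axis, for the driver, digest and LPS experiments. Dots are libraries and bars are group means; the constitutive pull-down lies at the level of input and IgG, the other pull-downs with tamoxifen near 1%, sorted cells under 0.07%, and sortIP between sorted cells and pull-down.

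With the inducible driver, 33 of the 35 genes were lower in pull-down than in input and 0 were higher (edgeR quasi-likelihood test, Benjamini-Hochberg adjusted p under 0.05 over all genes tested). Of all 11868 genes tested, 35.5% were called lower and 28.7% higher. The median log2 difference of the 35 was -1.27, against -0.28 over all genes. Lower genes comprised all 8 of the release machinery, all 5 vesicle proteins, both active zone scaffolds, 7 of 9 postsynaptic genes, all 5 transmitter genes and all 6 other neuronal genes.

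Snap25, a SNARE protein of the presynaptic membrane, stood at 1681, 2026 and 1705 CPM (counts as a rate of the library total after TMM scaling) in input and at 265, 207 and 192 CPM in pull-down. All 3 pull-downs lay far below all inputs, a log2 difference of -3.03 ± 0.20 (SE, adjusted p = 9.94e-16). Syt1, the calcium sensor of release, had 472, 480 and 885 CPM in input and 65.5, 40.1 and 56.5 CPM in pull-down (-3.49 ± 0.24, adjusted p = 3.85e-15). Replicate 3 of the input held the high value, and still no pull-down came near an input. That library stood apart in other members too, with Sv2a at 322 CPM against 106 and 82.7 CPM. Without it 31 genes were lower, and Sv2a (-0.25, adjusted p = 0.309) and Camk2b (-0.39, adjusted p = 0.0781) lost their calls. Nsf, the ATPase that takes spent SNARE complexes apart, was lower by a log2 difference of -1.27.

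Among postsynaptic genes, Gabrb2, a subunit of the GABA-A receptor, fell the most (-4.02 ± 0.52, adjusted p = 5.83e-08). It had 32.2, 32.0 and 60.7 CPM in input and 5.14, 0 and 2.17 CPM in pull-down. Camk2a, the alpha chain of calmodulin kinase II, stood at 517, 427 and 853 CPM in input and 168, 117 and 313 CPM in pull-down, with no overlap (-1.58 ± 0.28, adjusted p = 1.69e-05). Nrgn, which binds calmodulin in dendrites, differed by -0.86 ± 0.22 (adjusted p = 0.000766). The NMDA receptor genes Grin1 (-0.18 ± 0.31) and Grin2b (-0.30 ± 0.27) were the 2 members that did not pass the test (adjusted p = 0.614 and 0.328).

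The transmitter genes spanned nearly the whole range. Slc17a6, the vesicular glutamate transporter VGLUT2, had 28.7, 32.8 and 33.0 CPM in input and 0, 0 and 2.17 CPM in pull-down. With 2 reads in pull-down against 159 in input, its depth-scaled ratio was 0.0266 (95% interval 0.00319 to 0.0976, counting error only). Slc17a7, the transporter VGLUT1, had 575, 420 and 309 CPM in input and 302, 226 and 308.7 CPM in pull-down. For Slc17a7 the groups touched, with the highest pull-down just under the lowest input (-0.63 ± 0.21, adjusted p = 0.00861). The GABA-synthesising enzymes differed likewise from each other. Gad2 had 90.4, 96.1 and 127 CPM in input and 8.99, 11.9 and 9.78 CPM in pull-down (-3.36 ± 0.28, adjusted p = 3.54e-13), while Gad1 had 207, 265 and 182 CPM against 79.6, 66.9 and 112 CPM (-1.32 ± 0.20, adjusted p = 3.59e-07). Slc32a1, which loads GABA into vesicles, was lower by a log2 difference of -1.24. Of the other neuronal genes, the dendritic microtubule protein Map2 (-3.22), the tubulin regulator Stmn2 (-2.10), the secreted protein Olfm1 (-1.46) and the deubiquitinase Uchl1 (-1.36) were lower, as was the synuclein gene Sncb (-0.54 ± 0.21, adjusted p = 0.0242).

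Against IgG, 32 of the 35 genes were lower in the inducible pull-down and 0 higher, at a background of 35.3% lower and 30.8% higher, with a median of -1.25 (-0.19 over all genes). Gabrb2 (-6.15), the AMPA receptor gene Gria2 (-4.11) and Gad2 (-3.87) were far lower, and Slc17a6 had 2 reads against 214 in IgG (ratio 0.0141, 95% interval 0.00169 to 0.0514). The 3 that were not called were the scaffold Dlg4 (-0.40), Slc32a1 (-0.39) and Sncb (0.27). Among other neuronal genes named for this purpose, 43 of 48 tested were lower than in input and 46 lower than in IgG, with 0 higher in both (medians -1.60 and -1.88). Against input, the active zone gene Rims1 differed by -4.80, and Atp6v0c (-0.30) and Unc13a (-0.24), highest of that list, were not called. The glial markers moved with them, with 9 of 12 astrocyte markers lower and 1 higher than in input and 10 of 12 oligodendrocyte markers lower. Astrocyte markers summed to 0.489% to 0.654% of counts in input and 0.186% to 0.205% in pull-down, oligodendrocyte markers to 0.527% to 0.641% and 0.149% to 0.178%, with the myelin lipid enzyme Ugt8a at 0 reads in pull-down. The part of these lists in the neuronal result was not tested.

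With the constitutive driver the 35 genes split. In pull-down against input, 12 were higher and 10 lower, and 13 were not called (background 18.1% higher and 16.8% lower). The median was 0.16, against -0.02 over all genes. Scaled by total counts, the split became 8 higher and 13 lower, with a median of -0.11. With a library of these groups left out in turn, 15 to 19 genes were called, 8 to 13 higher and 6 to 9 lower. Higher genes included Syp, a vesicle membrane protein (1.45 ± 0.30, adjusted p = 0.000458), Sncb (1.12 ± 0.21, adjusted p = 7.59e-05) and Grin1 (1.10). Sncb had 2559, 2491 and 1703 CPM in input and 4410, 5781 and 4484 CPM in pull-down. All 3 pull-downs of Sncb lay above all inputs.

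Slc17a7 stood at 414, 421 and 287 CPM in input and at 540, 755 and 802 CPM in pull-down (0.90 ± 0.21, adjusted p = 0.000813), and Slc32a1 at 391, 375 and 419 CPM against 574, 845 and 759 CPM (0.88 ± 0.18, adjusted p = 0.000216). Neither overlapped. Uchl1 (0.74), Nrgn (0.68) and Stmn2 (0.51) were higher too.

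Lower genes were led by both active zone scaffolds. Bassoon, encoded by Bsn, had 170, 143 and 164 CPM in input and 46.1, 45.4 and 44.6 CPM in pull-down (-1.81 ± 0.24, adjusted p = 4.83e-07), and Piccolo, encoded by Pclo, differed by -1.30 ± 0.45 (adjusted p = 0.0278). The 3 pull-downs of Bsn were nearly equal and far from every input. Slc17a6 followed with 17.9, 27.7 and 39.3 CPM in input and 16.4, 9.55 and 10.7 CPM in pull-down, without overlap (-1.18 ± 0.31, adjusted p = 0.00323). Map2 (-1.14 ± 0.19, adjusted p = 1.53e-05), Gad2 (-0.95 ± 0.20, adjusted p = 0.000356) and Camk2a (-0.68 ± 0.27, adjusted p = 0.0476) were lower as well.

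Several abundant genes showed no call in either direction. Snap25 had 1710, 1708 and 1977 CPM in input and 1229, 1778 and 1537 CPM in pull-down, overlapping (-0.25 ± 0.18, adjusted p = 0.297). Syt1 differed by -0.06, Olfm1 by 0.07, Gad1 by 0.11 and Nsf by 0.44, none called. Replicate 1 of the constitutive pull-down stood apart in glial markers, with astrocyte markers at 0.676% of counts against 0.234% and 0.241% and oligodendrocyte markers at 0.548% against 0.160% and 0.170%. Without that pull-down, Camk2a, Cplx1, Syn1 and Pclo lost their calls against input (adjusted p = 0.137, 0.145, 0.154 and 0.0799). Replicate 3 of the constitutive input stood apart from the others as well, and without it 9 genes were higher and 9 lower. Over all genes tested, its deviations from the group mean went with those of replicate 3 of the inducible input (correlation 0.535). Those inputs came from different mice, and what they share was not tested.

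Against IgG, 11 were higher and 9 lower in the constitutive pull-down (background 20.5% and 18.3%, median 0.22, all genes 0.07). DESeq2 size factors gave 8 and 12, and scaling by total counts 6 and 13. Sncb (1.68), Slc32a1 (1.58 ± 0.19, adjusted p = 5.05e-08) and Uchl1 (1.16) stood highest, and Gabrb2 (-2.58), Slc17a6 (-2.07) and the NMDA receptor gene Grin2b (-1.79) lowest. Of other neuronal genes 7 were higher and 12 lower than input, from the neurite gene Nrsn1 (-2.54) and the sodium channel gene Scn1a (-1.59) to Ncdn (0.87) and the stathmin Stmn3 (1.17), and 7 were higher and 18 lower than IgG. Astrocyte and oligodendrocyte markers were each lower than input in 6 of 12, with 0 higher.

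Set against each other, 32 of 35 genes were higher in the constitutive than in the inducible pull-down and 0 lower (background 30.2% higher and 25.6% lower). The median was 1.62, against 0.20 over all genes. These comparisons share libraries with those above, so they are the same values read another way. The inducible mice had tamoxifen and the constitutive mice had none, so driver and tamoxifen cannot be told apart here. Snap25 was higher by 2.78 ± 0.20 (adjusted p = 1.71e-14), Gabrb2 by 3.11 and Syt1 by 2.87, and Slc17a6 had 50 reads against 2 (ratio 15.0, 95% interval 3.93 to 127). Stmn2 (2.57), Gad2 (2.40), Slc32a1 (2.14), Map2 (2.09), Gad1 (1.75), Nrgn (1.62), Olfm1 (1.48), Nsf (1.43), Slc17a7 (1.32) and Camk2a (0.80) were higher too. The 3 genes that were not called were both active zone scaffolds, Bsn (-0.40) and Pclo (0.37), and Grin2b (-0.19). The microglial markers went the other way, lower in 20 of 20.

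The difference between drivers was also tested over each driver's own input, where driver and tamoxifen again cannot be told apart. By that interaction term 29 of 35 were higher with the constitutive driver and 0 lower (background 23.9% and 19.7%), among them Syt1 (3.43 ± 0.32, adjusted p = 8.19e-11), Gabrb2 (3.41) and Snap25 (2.78 ± 0.27, adjusted p = 1.92e-10). Camk2a (0.90 ± 0.38, adjusted p = 0.0563), Pclo (1.10), Syn1 (0.75), Grin2b (0.44), Dlg4 (0.41) and Bsn (-0.54) were not called. Other neuronal genes were higher in 40 of 48 by the same term. The inputs of both drivers gave 0 calls among the 35 and 0% of all genes by edgeR, with 3 of the 35 at an unadjusted p under 0.05 and 0 by DESeq2.

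Without tamoxifen the pull-down gave few calls against its backgrounds, with 2 mice and the shallow libraries named above. Against input 2 genes were higher and 5 lower (background 6.44% and 4.46%), and against IgG 2 were higher and 3 lower (5.01% and 3.13%). Higher than input were Grin2b (2.00 ± 0.38) and the vesicle protein Sv2a (1.97), and lower were Cplx1 (-1.25), Map2 (-1.16), Uchl1 (-1.02), Sncb (-0.85) and Olfm1 (-0.72). Against the inducible pull-down 30 were higher and 0 lower (16.4% and 18.3%), among them Gabrb2 (4.90), Gria2 (3.43), Syt1 (3.30) and Snap25 (2.33), whereas Sncb (-0.03), Bsn (0.08), Uchl1 (0.26), Dlg4 (0.35) and Camk2b (0.38) were not called. Other neuronal genes gave 4 higher and 5 lower than input, 0 and 5 against IgG, and 38 and 0 against the inducible pull-down. Microglial markers were nonetheless higher than input in 19 of 20 (median 3.71), at 2.01% and 1.71% of counts.

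**Figure D2:**
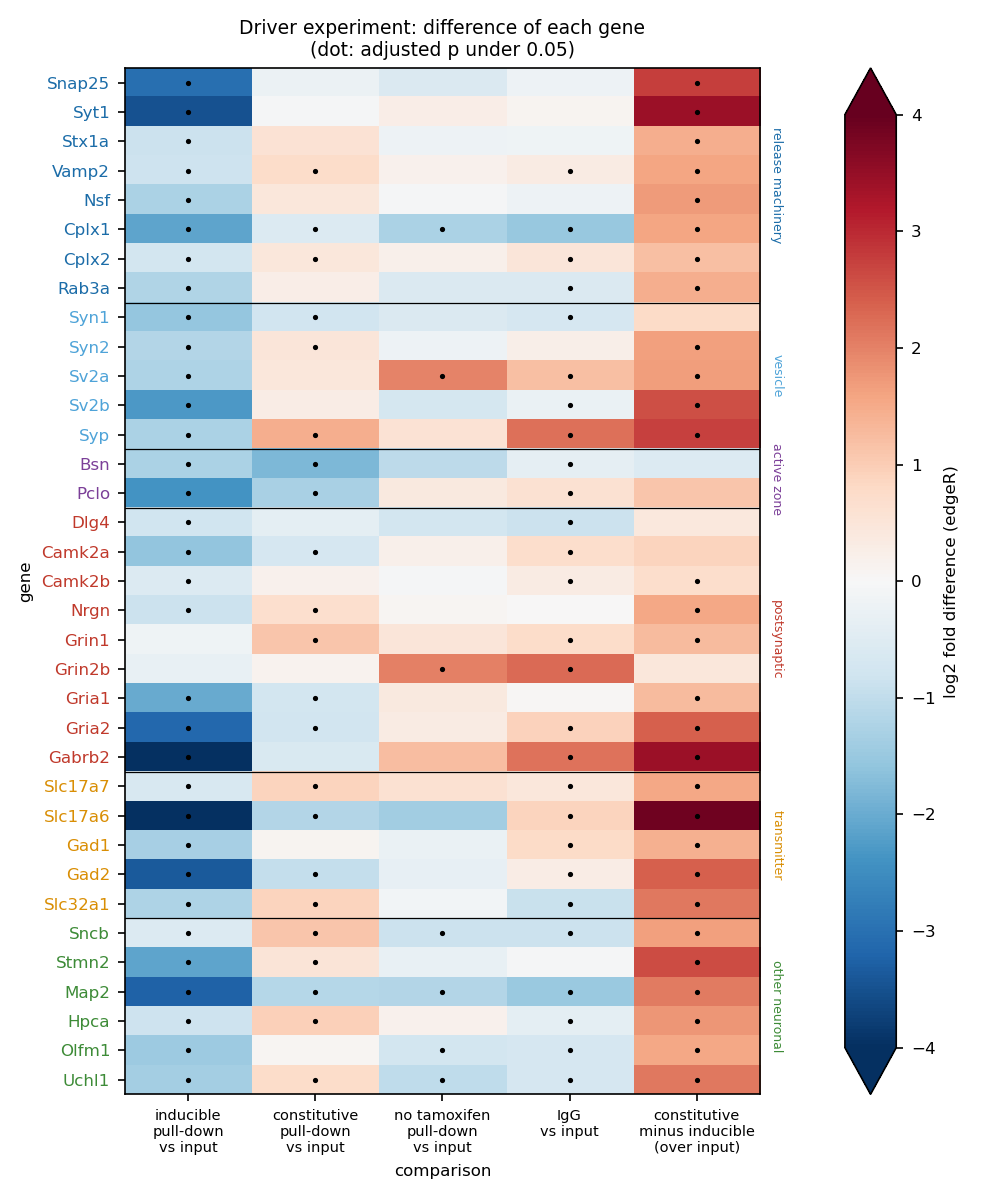
Log2 differences of the 35 genes, grouped by role, in 5 comparisons of the driver experiment, with colours capped at 4 in either direction and a dot where the adjusted p was under 0.05. The inducible column is blue in all rows, the constitutive and no-tamoxifen columns are mixed, and the last column shows the constitutive minus the inducible difference over input, red in all rows but Bsn.

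The next question was whether the IgG background keeps the neuronal profile of the homogenate. Averaged over the 3 kinds of mice, 15 of 35 genes were higher in IgG than in input and 12 lower (background 25.5% and 28%), with a median of 0.05. The sign was the same in all 3 kinds for 15 genes above input and 14 below, and mixed for 6. By role, 6 of 9 postsynaptic and 4 of 5 transmitter genes were higher with 1 lower in each, whereas 5 of the 6 other neuronal genes were lower and 0 higher.

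Syp stood at 77.8, 67.8 and 70.9 CPM in the inputs of inducible mice and 321, 191 and 356 CPM in their IgG libraries. It stood at 54.4, 62.4 and 52.4 CPM against 349, 242 and 139 CPM in constitutive mice, and 77.5 and 55.1 CPM against 538 and 228 CPM without tamoxifen. Every IgG library lay above every input, a mean log2 difference of 2.21 ± 0.19 (adjusted p = 2.01e-10). Grin2b behaved alike, from 19.3 to 60.4 CPM over the inputs and 86.4 to 202 CPM over the IgG libraries (2.27 ± 0.15, adjusted p = 7.94e-15), as did Gabrb2 (2.17 ± 0.18, adjusted p = 7.58e-12).

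Cplx1, which clamps SNARE complexes before release, went the other way. It had 1761, 1677 and 1022 CPM in the inputs of inducible mice against 549, 597 and 512 CPM in IgG, and 1703 and 1830 CPM against 598 and 510 CPM without tamoxifen. In constitutive mice it had 2095, 2003 and 1463 CPM against 556, 666 and 809 CPM, so that no IgG library reached any input (-1.52 ± 0.13, adjusted p = 2.41e-12). Map2 (-1.49 ± 0.12, adjusted p = 1.23e-12), Slc32a1 (-0.88), Uchl1 (-0.66) and Olfm1 (-0.66) were lower. Slc17a6 (0.90), Gad1 (0.77), Camk2a (0.69), Slc17a7 (0.47) and Gad2 (0.31) were higher, while Snap25 (-0.22 ± 0.11, adjusted p = 0.109), Syt1 (0.12), Nrgn (0.03), Stmn2 (-0.05) and Nsf (-0.20) were not called. In a grouping chosen after the values were seen, 11 members whose protein crosses the membrane several times had a median of 0.90, with 8 higher and 2 lower. The other 24 had a median of -0.18, with 7 higher and 10 lower. Of 48 other neuronal genes 27 were higher and 12 lower, from Syngr3 (-2.10) and Rtn1 (-0.89) to the RNA-binding protein Elavl2 (2.60).

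**Figure D3:**
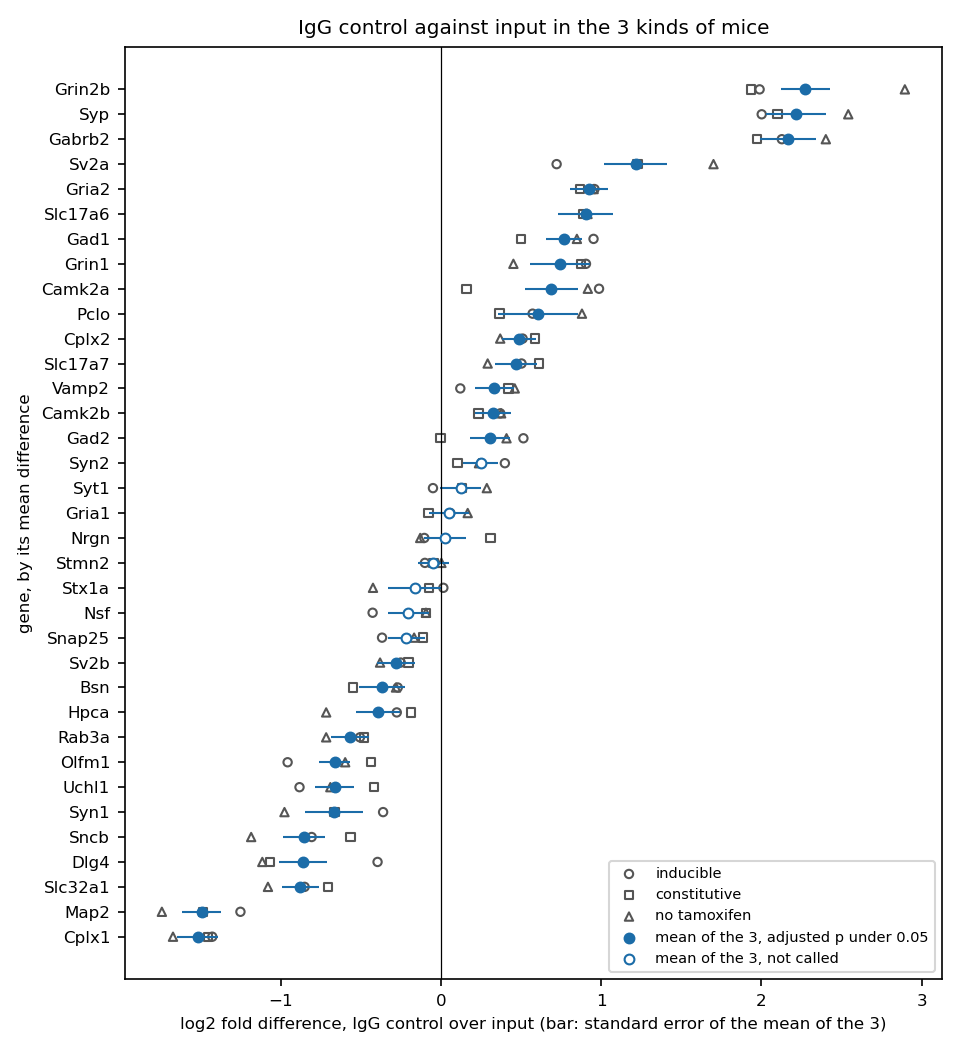
Log2 difference of IgG minus input for each of the 35 genes, with open symbols for each kind of mice and the mean with its SE bar (filled where called). Grin2b, Syp and Gabrb2 lie above 2 and Cplx1 and Map2 near -1.5, with the kinds of mice close together.

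Ratios between related members within a library do not depend on library scaling, and they are given as a description. The ratio of Cplx1 to Cplx2 had a mean log2 of 1.32, 0.86 and 1.17 in the inputs of the constitutive, inducible and no-tamoxifen mice and -0.71, -1.05 and -0.88 in their IgG libraries. In the pull-down it was 0.34 ± 0.11 (SD, n = 3) with the constitutive driver and -0.49 ± 0.23 (n = 3) with the inducible one. The ratio of Slc17a6 to Slc17a7 was -5.81 ± 0.69 in the constitutive pull-down, against -3.76 ± 0.83 in its input and -3.42 ± 0.25 in its IgG (n = 3 each). In the inducible pull-downs Slc17a6 had 0, 0 and 2 reads beside 235, 152 and 284 of Slc17a7, too few for a mean ratio. Gad2 to Gad1 was -2.43 ± 0.06 in the constitutive pull-down and -1.39 ± 0.29 in its input. Of the 10 pairs examined, 7 had no overlap between the constitutive pull-down and its input, 9 between it and its IgG, and 3 between all IgG and all input libraries. The like share over pairs of other genes was not computed, so whether these counts are unusual cannot be said.

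In the digest experiment the neuronal genes again took a smaller share of counts in the pull-down than in IgG. The 35 genes took 0.738%, 0.749% and 0.710% of counts in pull-down and 2.98%, 2.76%, 2.54% and 2.57% in IgG. All 35 were lower and 0 higher (background 47.8% lower and 26.7% higher, median -2.35, all genes -0.47). Gabrb2 (-4.85), Pclo (-3.70) and Syp (-3.36) were lowest, and Olfm1 (-1.43), Slc32a1 (-1.24) and Sncb (-1.03) nearest to IgG. Snap25 had 180.5, 213 and 172 CPM against 704, 1079, 891 and 1118 CPM (-2.33 ± 0.17, adjusted p = 1.62e-14). Camk2a (-3.30) and Slc17a7 (-3.02) were lower by more. Of 46 other neuronal genes tested 45 were lower, and 1, the synaptogyrin Syngr1, was higher (5.32).

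In sorted cells the neuronal genes took a far smaller share of counts than in the pull-down. The 35 genes took 0.0255%, 0.0314%, 0.0244% and 0.0278% of counts in cells sorted after the digest and 0.0263%, 0.0284%, 0.0315% and 0.0304% in cells sorted without it. Those means were 3.72% and 3.98% of the pull-down mean. In each sort 34 of 35 were lower than in pull-down and 0 higher (background 41.1% lower and 31.6% higher with the digest, 40.9% and 31.9% without). The exception was Gabrb2, with 11 reads in the pull-down, 1 after the digest and 0 without it. DESeq2, and the fit with the replicate number as a block, called all 35 lower in each sort. The fitted median was -6.99 with the digest, or -6.21 with the 8 members at 0 reads set to their bound, and -7.69 without it, or -5.90 with 11 at their bound.

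Snap25 had 2.14 CPM in 1 library sorted after the digest and 0 in the other 3, which is 2 reads against 851 in pull-down (ratio 0.00229, 95% interval 0.000277 to 0.00829). Nrgn had 1645, 1617 and 1366 CPM in pull-down and 5.36, 9.46, 5.21 and 2.86 CPM after the digest (-7.98 ± 0.25, adjusted p = 2.99e-22). Members with 0 reads in all 4 libraries sorted after the digest included Syn2, at least 190-fold lower, Grin1 (at least 144-fold), Syt1 (at least 55.1-fold) and Gad2 (at least 16.4-fold), where 0 is replaced by a floor of 3 reads for the whole group. Without the digest, Stmn2 was at least 198-fold lower, Slc32a1 at least 180-fold and Map2 at least 65.1-fold. In all, 6 members were at 0 reads in both sorts.

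A few members kept a level in sorted cells. Vamp2, the SNARE protein of the vesicle, had 578, 531 and 441 CPM in pull-down and 93.2, 128, 85.9 and 112 CPM after the digest. Without the digest it had 109, 134, 128 and 130 CPM, all below the pull-down (-2.29 ± 0.15 and -2.04). Bsn came nearest to its pull-down, with 36.4, 32.3 and 42.8 CPM there and 10.7, 12.8, 8.68 and 19.1 CPM after the digest (-1.53 ± 0.25). The plasma membrane SNARE Stx1a differed by -2.45, Sv2a by -2.95, Nsf by -3.14, Camk2b by -3.82 and the vesicle GTPase Rab3a by -4.47. With Vamp2 and Bsn, these are the 7 members at 10 CPM or more in both sorts, a threshold chosen after the values were seen, with Dlg4 just outside at 10.3 and 8.88 CPM. The 7 held 86.6% of the members' reads after the digest and 90.0% without it, against 24.8% in pull-down and 25.5% in IgG. They were chosen by their level in these same sorts, so a large share there follows from the choice. In sorted cells of the LPS experiment, not used for the choice, they held 49.8% in PBS mice and 43.1% in LPS mice. None of the 7 shares its span with another protein-coding gene, which 5 members do (Syt1, Syn1, Syn2, Grin1 and Hpca). The strand used in counting was not given.

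The digest itself gave 0 calls among the 35 genes by edgeR (0.139% of all genes, in either direction), with 1 at an unadjusted p under 0.05 and 0 by DESeq2. Other neuronal genes were lower than pull-down in 42 and 41 of 46 in the sorts with and without digest, with 0 called between the sorts. Astrocyte markers were lower in 10 of 12 and oligodendrocyte markers in 10 of 11 in the sort after the digest, with Aqp4, Gja1, Ermn, Ugt8a and Opalin at 0 reads.

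**Figure D4:**
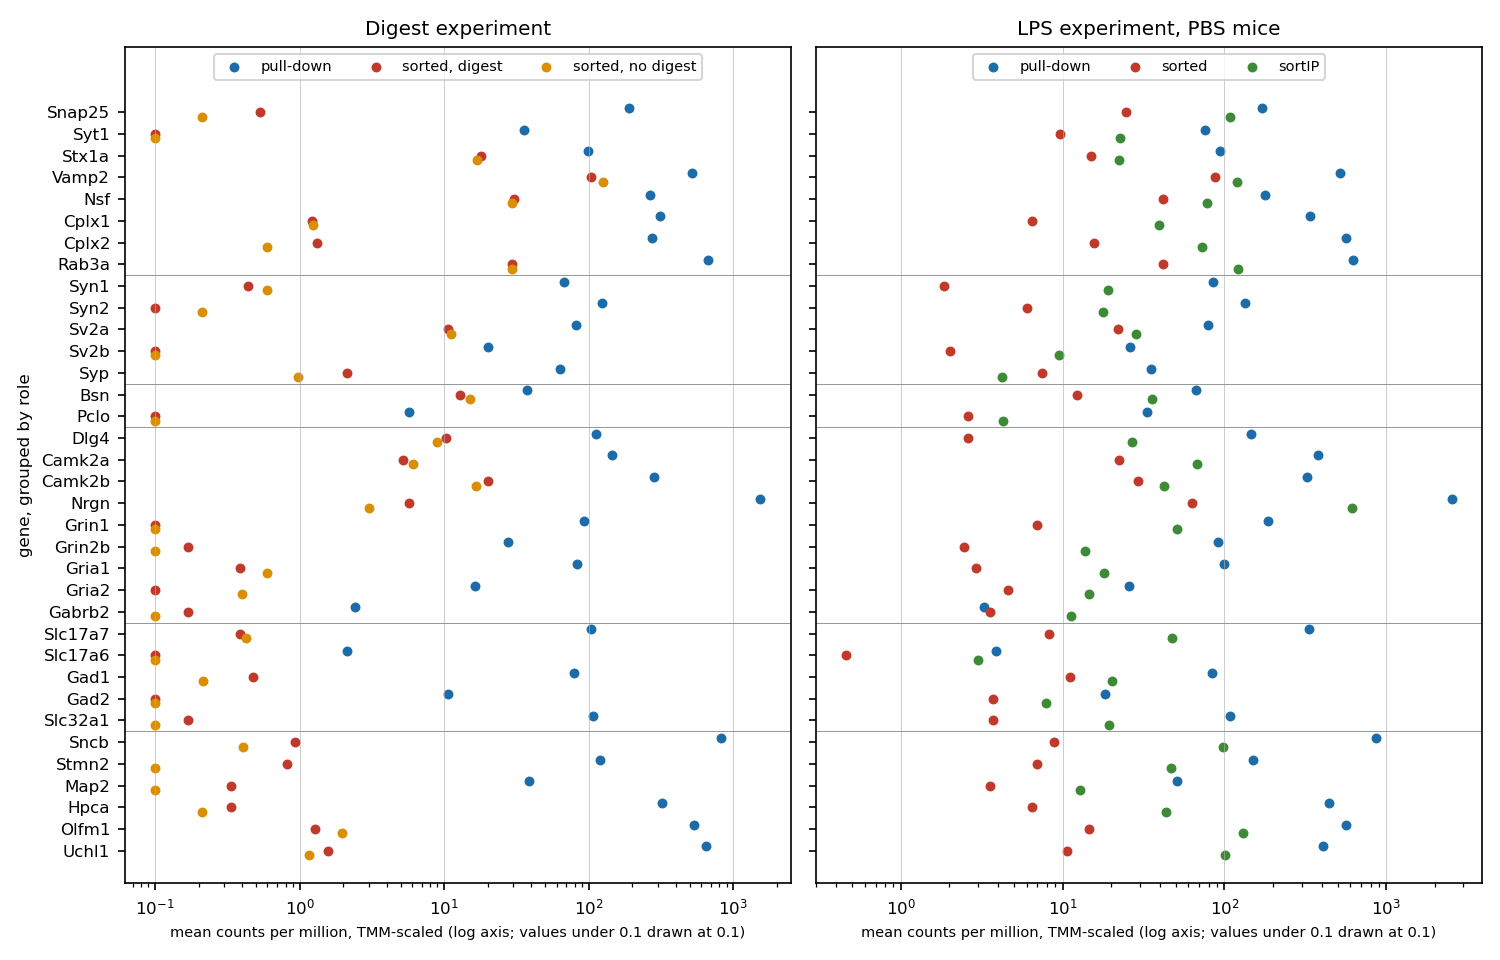
Mean CPM of each of the 35 genes on a log axis, at the left in the digest experiment (pull-down and both sorts) and at the right in PBS mice of the LPS experiment (pull-down, sorted cells and sortIP). Values under 0.1 are drawn at 0.1; both sorts lie together far to the left of the pull-down, and most sortIP points lie between sorted cells and pull-down.

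In the LPS experiment the pull-down was below IgG in the same way, with 32 of 35 genes lower and 0 higher in both PBS mice (background 32% lower and 33% higher, median -1.44) and LPS mice (35.3% and 37.6%, median -1.39). With DESeq2 size factors or scaling by total counts it was all 35 in each. Other neuronal genes were lower in 47 of 49 in PBS mice, and lower in 48 and higher in 1 in LPS mice. Sorted cells were below pull-down for 34 of 35 genes in PBS mice (background 38.7% lower and 33.2% higher, median -3.92) and in LPS mice (43% and 33.1%, median -4.02, or -3.94 with 1 member at its bound). In both, Gabrb2 was not called (-0.06 and 0.26).

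In PBS mice Sncb (-6.50), the calcium sensor Hpca (-6.18) and Cplx1 (-5.78) were lowest in sorted cells, and Snap25 differed by -2.82 ± 0.61 (adjusted p = 0.000349). In LPS mice Sncb (-6.95) and Hpca (-6.16) were again lowest by fit, Slc32a1 had 2 reads in sorted cells (ratio 0.00687, 95% interval 0.00083 to 0.0249), and Slc17a6 was at least 2.61-fold lower. The share of the 35 genes in sorted cells was 0.0467%, 0.0563% and 0.0612% in PBS mice and 0.0624%, 0.0390%, 0.0370% and 0.0416% in LPS mice. Those means were 6.04% and 5.27% of the pull-down mean. Other neuronal genes were lower in sorted cells in 43 of 49 in PBS mice, and lower in 44 and higher in 1 in LPS mice.

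In sortIP the share was higher again than in sorted cells. In PBS mice the sum of the 35 genes was 0.185%, 0.143% and 0.236% in sortIP, each above every sorted library, and the mean was 3.43 times that of sorted cells and 20.7% of that of the direct pull-down. In LPS mice it was 0.100%, 0.228%, 0.258% and 0.0874%, a mean 3.74 times that of sorted cells. The 2 highest of these LPS libraries were also the shallowest, at 209147 and 166851 counts, against 644917 and 662404 in the others. In PBS mice 25 of 35 genes were higher in sortIP than in sorted cells and 0 lower (background 16.6% and 15.2%, median 2.20, all genes 0.04). In LPS mice 24 were higher and 0 lower (15.2% and 16.7%, median 1.96, all genes 0.03), or 12 when the sortIP libraries under 300000 counts were left out.

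Nrgn had 49.5, 72.0 and 68.7 CPM in sorted cells of PBS mice and 588, 407 and 848 CPM in sortIP (3.31 ± 0.28, adjusted p = 1.32e-11). In LPS mice it had 80.2, 50.0, 56.8 and 67.7 CPM against 364, 494, 701 and 308 CPM (2.82 ± 0.26, adjusted p = 3.89e-11). Neither overlapped, and all sortIP values stayed under the 2378 to 2664 CPM of the direct pull-down in PBS mice. Syn1, which tethers vesicles to actin, had 0, 4.15 and 1.40 CPM in sorted cells of PBS mice and 19.5, 11.1 and 27.0 CPM in sortIP, the largest fitted difference (3.61 ± 0.61, adjusted p = 4.18e-06). Sncb had 12.8, 11.1 and 2.80 CPM against 111, 48.1 and 135 CPM (3.45 ± 0.40, adjusted p = 6.95e-09). Uchl1 (3.27), Olfm1 (3.23), Stmn2 (2.89), Slc17a7 (2.78), Slc32a1 (2.37), Map2 (1.84), Camk2a (1.63) and Nsf (0.93) were higher in PBS mice.

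Snap25 had 18.3, 26.3 and 29.4 CPM in sorted cells of PBS mice and 113, 85.1 and 126 CPM in sortIP (2.20 ± 0.69, adjusted p = 0.018). In LPS mice it had 25.4, 26.7, 13.7 and 23.8 CPM against 53.8, 298, 351 and 41.1 CPM (2.75 ± 0.64, adjusted p = 0.00239). The shallow libraries are the high ones in LPS mice, and every sortIP value still lay above every sorted value. Slc32a1 had 22 reads in sortIP against 2 in sorted cells of LPS mice (ratio 21.96, 95% interval 5.40 to 193), and Gad2 14 against 3 (ratio 9.32, 95% interval 2.60 to 50.6).

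Of the 7 members at 10 CPM or more in the sorts of the digest experiment, Bsn, Nsf and Rab3a were called higher in sortIP of PBS mice and 4 were not. Vamp2 had 88.0, 88.6 and 86.9 CPM in sorted cells and 137, 70.3 and 153 CPM in sortIP, overlapping (0.52 ± 0.23, adjusted p = 0.0831). Sv2a (0.39), Camk2b (0.57) and Stx1a (0.57) were the other members of that set without a call. Outside it, Syp (-0.42), Pclo (1.05), Gad1 (1.17), Syt1 (1.35) and Gad2 (1.41) were not called, and Slc17a6 had 4 reads against 1. The 7 members took 49.8% of the members' reads in sorted cells and 20.6% in sortIP of PBS mice, and 43.1% and 19.0% in LPS mice.

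Markers of other cells were also called between sorted cells and sortIP, though the summed astrocyte share did not rise with the neuronal one. In PBS mice 6 of 12 astrocyte markers were higher in sortIP and 1 lower (median 2.33), and 7 oligodendrocyte markers were higher and 0 lower (median 1.72). Astrocyte markers summed to 0.113% to 0.145% of counts in sorted cells and 0.0826% to 0.127% in sortIP, and oligodendrocyte markers to 0.0166% to 0.0290% and 0.0378% to 0.0621%, with Ermn and Aspa at 0 reads in sortIP and Mobp and Opalin in sorted cells. In LPS mice the astrocyte sum was 0.0713% to 0.0841% in sorted cells and 0.0539% to 0.111% in sortIP, with Aldh1l1 at 0 reads in sortIP. The oligodendrocyte sum was 0.0151% to 0.0373% and 0.0251% to 0.0959%, with Ermn and Aspa at 0 reads in sorted cells. Microglial markers were higher in 11 and lower in 4 in PBS mice, with sums of 7.89% to 8.004% in sorted cells and 12.96% to 13.19% in sortIP. The part of these lists and of depth in the neuronal result was not tested. Other neuronal genes were higher in sortIP in 31 of 49 in PBS mice (median 1.68) and 21 in LPS mice (median 1.11), with 0 lower in both.

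The last question was whether LPS moved neuronal RNA. In pull-down 1 of 35 genes was lower and 0 higher (background 11% lower and 15.5% higher), with a median of 0.01. That gene was Map2, at 51.1, 57.2 and 44.33 CPM in PBS mice and 23.1, 23.0, 30.5 and 44.30 CPM in LPS mice. The groups only just failed to overlap (-0.83 ± 0.23, adjusted p = 0.00504). In IgG 0 genes were called by edgeR (1.15% of all genes, in either direction), with 2 at an unadjusted p under 0.05 and 0 by DESeq2. The LPS effect in pull-down minus that in IgG also gave 0 (8.58% of all genes, in either direction), with 2 unadjusted and 0 by DESeq2.

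In sorted cells Rab3a and Sv2a were lower and 0 higher (background 17.6% lower and 17% higher, median -0.15). Rab3a had 33.9, 44.3 and 46.3 CPM in PBS mice and 27.4, 23.3, 13.7 and 14.3 CPM in LPS mice, without overlap (-1.13 ± 0.27, adjusted p = 0.000607). Sv2a had 31.2, 12.5 and 22.4 CPM against 15.6, 5.00, 4.21 and 5.94 CPM, and here the groups overlapped (-1.71 ± 0.39, adjusted p = 0.000296). Rab3a and Sv2a are both among the 7 members that kept a level in the sorts of the digest experiment. Whether their reads in sorted cells come from neurons was not tested.

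In sortIP 5 genes were lower and 0 higher (background 12.9% lower and 12.7% higher, median -0.48, all genes -0.07). Rab3a had 102, 144 and 116 CPM in PBS mice and 55.7, 82.3, 61.5 and 37.6 CPM in LPS mice (-1.12 ± 0.25, adjusted p = 0.000279). Grin1 had 52.8, 33.3 and 65.8 CPM against 22.3, 15.4, 24.6 and 14.3 CPM (-1.52 ± 0.42, adjusted p = 0.00521), and Bsn 33.2, 40.7 and 33.7 CPM against 20.4, 10.3, 18.5 and 8.95 CPM (-1.27 ± 0.39, adjusted p = 0.0109). These 3 did not overlap. Camk2b (-1.02 ± 0.33, adjusted p = 0.0146) did not overlap either, while Camk2a did, with 64.5, 66.6 and 72.5 CPM against 52.0, 25.7, 73.8 and 19.7 CPM (-0.80 ± 0.31, adjusted p = 0.0472). The count depended on the libraries. It was 17 without the sortIP libraries under 300000 counts, 10 without replicate 3 of the LPS mice, 8 without replicate 2 of the PBS mice, 2 without replicate 4 of the LPS mice and 3 without replicate 3 of the PBS mice. Of the genes called in sortIP, Rab3a, Bsn and Camk2b belong to the 7 members that kept a level in the sorts of the digest experiment, and Grin1 and Camk2a do not. Snap25 was not called in any preparation, at -0.62 in IgG, -0.42 in pull-down, -0.15 in sorted cells and 0.39 in sortIP. Microglial markers were lower in 9 and higher in 1 of 20 in pull-down, in 11 and 2 in sorted cells and in 14 and 0 in sortIP. Other neuronal genes gave 1 higher and 2 lower in pull-down, 0 and 1 in IgG, 3 and 3 in sorted cells and 1 and 3 in sortIP, of 49 tested.

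**Figure D5:**
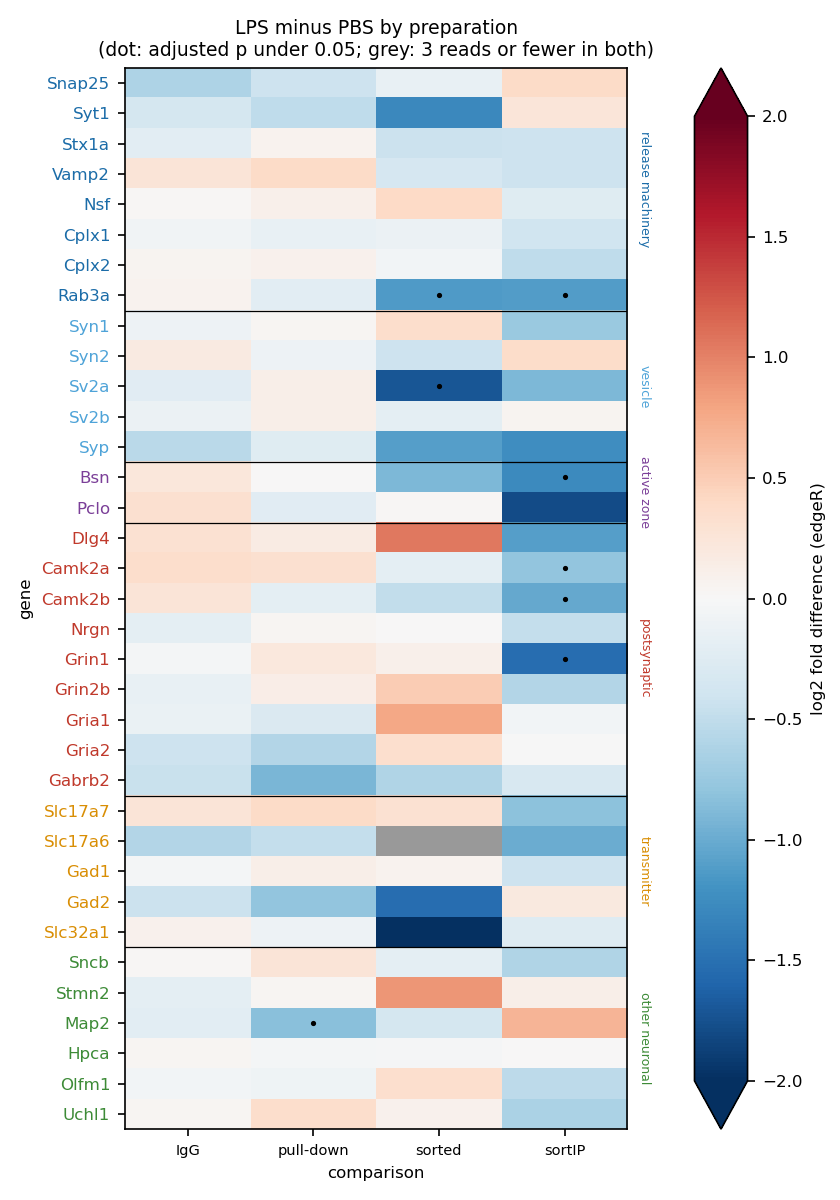
Log2 difference of LPS minus PBS for each of the 35 genes in IgG, pull-down, sorted cells and sortIP, with colours capped at 2 in either direction, a dot where the adjusted p was under 0.05 and grey where both groups held 3 reads or fewer. Dots stand at Map2 in pull-down, at Rab3a and Sv2a in sorted cells and at Rab3a, Bsn, Camk2a, Camk2b and Grin1 in sortIP, all of them lower with LPS.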

How the data were processed

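RNA was sequenced from mouse brain pull-downs, inputs and sorted cells, in 67 libraries. The authors deposited raw counts per gene over exons in 3 tables, 1 per experiment. Per the submitters' processing notes, bcl2fastq, HISAT 0.1.5, HOMER and the build mm9 were used. The sources used here do not give the role of each, the annotation, the strand setting or any molecular identifiers. Every count column was mapped to a sample by its labels, and 0 were left unmapped.

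Each experiment was fitted with all its groups in edgeR 4.0.16 (R 4.3.3), after filterByExpr with a minimum count of 10 and TMM scaling. The quasi-likelihood F test was used, with Benjamini-Hochberg adjustment over 11868 (driver), 11529 (digest) and 11444 (LPS) genes, and calls at an adjusted p under 0.05. Errors after a log2 difference are SE derived from the test, as the absolute log2 difference over the square root of its F statistic. The procedure was tested on simulated counts for the driver experiment only, with the same variability for every gene and independent libraries. The designs of the digest and LPS experiments were not simulated. CPM are TMM-scaled. Totals of 166851 to 3513317 counts per library limit low genes most, and intervals and the floor of 3 reads cover counting error only. Pair ratios used 0.5 added reads.

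Groups came from the labels. Per the design text replicates are individual mice. In the LPS experiment the titles number the mice across preparations, and the design text states that sorting and pull-down used the same animal, so libraries are paired within a treatment. Same-numbered libraries there had correlations of -0.0232 to 0.143 between their deviations from the group means. Though these were small, in most cases the same-numbered library was the best match of its partner group. The main fit did not use this pairing. No label ties the numbers of the other experiments to an animal. Between same-numbered inputs of the constitutive and inducible mice the correlations were 0.364, 0.0539 and 0.535 for replicates 1, 2 and 3. The number was a block in an alternative. DESeq2 1.42.0 gave other alternatives.

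The members and lists were chosen with earlier results of these data known. Values are given for Snap25, Syt1, Camk2a, Nrgn, Map2, Slc17a7, Slc17a6, Gad1, Gad2, Slc32a1, Stmn2, Olfm1, Nsf and Uchl1 where a result turns on them, and for the 3 largest and 3 smallest differences of a comparison. Other members named were chosen after their values were seen, and 1 gene of the other neuronal list is not reported here. The marker lists were other neuronal genes (53), microglia (20), astrocyte (12), oligodendrocyte (12), endothelial (11), border macrophage (10) and neutrophil and monocyte (10). In the inducible pull-down against input, endothelial markers were higher in 2 and lower in 2 of 9 tested, border macrophage markers higher in 10 of 10, and 0 of 1 neutrophil and monocyte marker was called.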

Additional observations from a re-analysis of the deposited data

Results flagged for a closer look

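A single library that stands apart was looked for in 44 combinations of a gene, or the summed share, with a group of 4 libraries. For normally spread values the rule marks about 1 in 20 by chance. Where all other libraries are at 0, any read is marked, so that rate does not hold there. The marked values are those of Snap25 in a library sorted after the digest (2.14 CPM, others 0) and in one sorted without it (0.844 CPM, others 0), of Gad1 in the same kinds of library (1.91 and 0.853 CPM), and of Camk2a after the digest (7.43 CPM). Slc17a6 stood apart in a sortIP library of LPS mice (10.3 CPM, from 2 reads). On the low side were Gad1 in a pull-down of LPS mice (67.1 CPM) and Gad2 in an IgG library of the digest experiment (49.1 CPM).

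The difference of pull-down over input between the constitutive and the inducible driver, tested as an interaction term, passed the threshold for 13 of the 14 genes followed throughout. Driver and tamoxifen cannot be told apart in it. The log2 differences, constitutive minus inducible, were 2.78 for Snap25, 3.43 for Syt1, 1.72 for Nsf, 1.55 for Nrgn, 2.08 for Map2, 2.61 for Stmn2, 1.53 for Olfm1 and 2.10 for Uchl1. For the transmitter genes they were 1.53 for Slc17a7, 3.89 for Slc17a6 (by fit, with 2 reads in the inducible pull-down), 1.43 for Gad1, 2.40 for Gad2 and 2.12 for Slc32a1.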

How the results depend on the processing

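No called member changed sign under the alternatives run, which were DESeq2 size factors, total-count scaling, no filter on low counts, the DESeq2 Wald test, only the groups compared, the replicate block and leaving out each library in turn. Leaving out sortIP libraries under 300000 counts was chosen after seeing the data. Of the counts of members called, 330 values stayed within 1.5 times the reported count and 19 did not. In the pull-down without tamoxifen, the count against input was 14 with only the groups compared and 3 to 7 with a library left out, and that against IgG was 1 to 6. For LPS against PBS in pull-down it was 2 with DESeq2 size factors, total-count scaling, the Wald test or the replicate block, 5 with only the groups compared, and 1 to 3 with a library left out. In sortIP it was 9 without the filter, 17 without the shallow libraries and 2 to 10 with a library left out. Without the shallow libraries, 12 members were higher in sortIP than in sorted cells of LPS mice. With total-count scaling the median of the 35 in the constitutive pull-down changed sign, to -0.11 against input and -0.07 against IgG. The replicate block (the mouse number for comparisons within a treatment in the LPS experiment) gave 26 members higher in sortIP of PBS mice and 24 in LPS mice. For LPS against PBS the block was instead the replicate number. That number joins different mice of the 2 treatments, so this block does not adjust for the mouse. It took the call from Camk2a for LPS in sortIP (adjusted p = 0.08855). Over all comparisons, the only count of members called that a replicate block changed by over 1.5 times was that for LPS in pull-down (2, with 1 reported). Over all genes, counts moved by over 1.5 times for the inputs of both drivers (50 without the filter, 1 without replicate 3 of the inducible input, 0 reported) and for the digest (25 without the filter or by the Wald test, 59 with only the groups compared, 16 reported). They also moved for LPS in IgG (213 without the filter, 86 without replicate 2 of LPS, 132 reported). Without tamoxifen, leaving out a library gave 451 to 817 genes against input (1293 reported), as few as 359 against IgG (965) and 2517 against the inducible pull-down (4120). Other scalings shifted the median of all genes by -0.66 to 0.46. Depth limits the sorted and sortIP groups, where several members rest on under 10 reads.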
